A study of Mus musculus with 24 samples.

Results

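T cells were described whose T cell receptor β chain (TRB) was found in more than 1 of 8 separately prepared pools of Panc02 tumors. For each barcode of the receptor sequencing, the TRB contig with the most unique molecular identifiers (UMIs) was taken, and the cells were chosen by their sequenced receptor: a TRB was called shared when the same V gene and the same amino acids of the third complementarity-determining region (CDR3) occurred in at least 2 of the 8 libraries. Of 7937 cells with a TRB, 1555 (19.6%) carried a shared TRB, and these cells held 158 of the 3747 distinct TRBs (4.22%). The other 6382 cells carried 3589 TRBs that were private to 1 library. At the threshold itself, 110 TRBs were in exactly 2 libraries and 3589 were in 1. A further 35 TRBs were in 3 libraries, 8 in 4, 3 in 5, and 2 in 6, and none was in more than 6.

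Panc02 is a mouse pancreatic cancer line, and 8 groups of wild-type male C57BL/6 mice of 6–7 weeks carried it under the skin until tumors were taken on day 38. The groups were PancVAX, PancVAX + Anti-PD-1, PancVAX + Anti-CTLA-4, PancVAX + Anti-PD-1 + Anti-CTLA-4 (called triple therapy here), Anti-PD-1 + Anti-CTLA-4 (called double antibody here), Anti-CTLA-4, Anti-PD-1, and Isotype Control. PancVAX is a neoantigen peptide vaccine (50 µg of each peptide, days 12 and 19) that was given with AddaVax and a STING agonist, so that peptides and adjuvants cannot be told apart here, and the antibodies block the checkpoint receptors PD-1 (100 µg, repeated from day 12) and CTLA-4 (100 µg, days 15 and 22). Each library was made from Percoll-enriched cells of several mice of 1 group, so that a library measures a pool, the mice within it are not resolved, a private TRB may still have come from several mice of its pool, and *P* values compare pools and not animals.

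The 8 libraries held 439–1464 cells with a TRB. A set of 31 barcode sequences carried a TRB in 2 or more of the libraries, and 0 of them carried the same TRB, so no pair of barcodes had to be removed as possible carry-over. Transfer of molecules or cells between libraries that leaves no common barcode was not tested. RNA was read from cells within the quality limits, which were 1163 of the shared cells (74.8%) and 5106 of the private cells (80.0%). The label of a T cell held for both: the summed level of 6 T cell genes was 4752–6197 CPM (UMIs of a gene per 1000000 UMIs of the summed cells) in shared cells and 3809–5245 CPM in private cells. Genes of other cell types were read as well, and their part in the results was not tested: macrophage genes summed to 171–1121 CPM in shared cells and 165–649 CPM in private cells and B cell genes to 0–24.3 and 4.17–29.9 CPM. In the same order, neutrophil genes summed to 2.07–294 and 55.3–354 CPM and dendritic cell genes to 27.6–304 and 32.1–192 CPM. Genes of tumor or stroma summed to 12.1–238 and 24.7–263 CPM. The 4 NK cell genes summed to 81.9–280 CPM in shared cells and 51.6–179 CPM in private cells, with *Ncr1* and *Klra8* at 0 UMIs in shared cells.

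A T cell makes its β chain by joining 1 V, 1 D, and 1 J segment, and trims and adds bases at the joints, which lie in the CDR3 and touch the presented peptide. Many different joints encode the same amino acids, and a chain that recurs between individuals is called public. A naive T cell keeps genes for recirculation through lymphoid tissue, such as *S1pr1* and *Klf2*, and an antigen-experienced cell loses them and gains granzymes and, with lasting stimulation, inhibitory receptors such as *Pdcd1* and *Lag3*.

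The TRBs below are numbered S1 to S5 for those in 5 or 6 libraries and S6 to S9 for the next 4 by number of cells. S1 joined TRBV16 (*Trbv16*, chr6:41151791-41152230) to TRBJ2-7 (*Trbj2-7*, chr6:41543810-41543856; RefSeq positions on GRCm38.p6), and its CDR3 spans the joint of both, so that it has no single genome position. Its 4 nucleotide forms are shown because they encode 1 amino acid sequence in 6 pools. Capitals mark bases that differ among the forms.
S1 form 1: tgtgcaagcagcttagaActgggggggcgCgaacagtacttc
S1 form 2: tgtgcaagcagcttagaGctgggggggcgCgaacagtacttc
S1 form 3: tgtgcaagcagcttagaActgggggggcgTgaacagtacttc
S1 form 4: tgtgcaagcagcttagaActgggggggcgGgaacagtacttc
Form 1 was carried by 108 cells in 4 libraries (71 in double antibody, 21 in Anti-PD-1, 10 in Isotype Control, and 6 in PancVAX). Form 2 was found only in triple therapy (13 cells), form 3 only in Isotype Control (12 cells), and form 4 only in PancVAX + Anti-PD-1 (9 cells). The α chain was not part of the rule. In 119 S1 cells of 5 libraries it was the same amino acid chain of TRAV7D-2 (*Trav7d-2*, chr14:52683964-52684472) and TRAJ7 (*Traj7*, chr14:54211470-54211528), in 3 nucleotide forms that differ in 1 codon, in capitals below.
S1 α form 1: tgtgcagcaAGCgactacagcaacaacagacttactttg
S1 α form 2: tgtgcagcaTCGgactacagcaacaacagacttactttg
S1 α form 3: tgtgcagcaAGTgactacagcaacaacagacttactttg
α form 1 (104 cells) was in the same 4 libraries as β form 1, α form 2 (13 cells) was in triple therapy, and α form 3 (2 cells) was in PancVAX. Of the 105 S1 cells within the quality limits, 101 had a *Cd8a* or *Cd8b1* UMI and no *Cd4* UMI.

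S2 is shown because it had the most nucleotide forms, 7, among the TRBs in 5 or 6 libraries, although only 16 cells carried it. The contigs name its V segment as *Trbv12-2* (chr6:41118864-41119364) joined with *Trbv13-2* (chr6:41121396-41121832), and capitals mark the variable bases.
S2 form 1: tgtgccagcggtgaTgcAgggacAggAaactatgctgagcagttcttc
S2 form 2: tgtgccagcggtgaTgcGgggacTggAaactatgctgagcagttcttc
S2 form 3: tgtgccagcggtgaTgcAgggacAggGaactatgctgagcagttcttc
S2 form 4: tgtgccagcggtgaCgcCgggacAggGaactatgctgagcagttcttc
S2 form 5: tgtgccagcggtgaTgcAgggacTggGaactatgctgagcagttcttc
S2 form 6: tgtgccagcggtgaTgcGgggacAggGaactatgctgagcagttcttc
S2 form 7: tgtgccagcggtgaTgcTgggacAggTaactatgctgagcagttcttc
Form 3 was in 2 libraries (Anti-CTLA-4 and double antibody, 1 cell each), and each other form was in 1. An α chain of TRAV16N and TRAJ16 with 1 amino acid sequence went with S2 in 11 cells of 5 libraries.

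S6 and S8 are shown because their largest clones belonged to 1 pool each. S6 (TRBV5, TRBJ2-3) was carried by 123 cells of Anti-CTLA-4 as form 1 (91 cells) and form 2 (32 cells), and by 2 cells of PancVAX + Anti-PD-1 as form 3. S8 (TRBV16, TRBJ2-5) was carried by 58 cells of double antibody as form 1, 7 cells of triple therapy as form 2, and 1 cell of PancVAX + Anti-PD-1 as form 3. Capitals mark bases that differ among the forms of one TRB.
S6 form 1: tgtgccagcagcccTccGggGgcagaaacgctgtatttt
S6 form 2: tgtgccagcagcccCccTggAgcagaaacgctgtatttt
S6 form 3: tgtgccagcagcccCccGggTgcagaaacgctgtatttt
S8 form 1: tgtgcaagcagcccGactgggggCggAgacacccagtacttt
S8 form 2: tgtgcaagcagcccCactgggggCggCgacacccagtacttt
S8 form 3: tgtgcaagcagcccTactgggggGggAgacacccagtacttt
The 2 large S6 clones of the Anti-CTLA-4 pool differed in the α chain as well, with TRAV3D-3/TRAJ7 in 89 cells of form 1 and TRAV7D-2/TRAJ7 in 31 cells of form 2. S8 had 1 nucleotide form of its α chain, TRAV9D-3/TRAJ7, in 55 cells of 3 libraries.

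**Figure D1:**
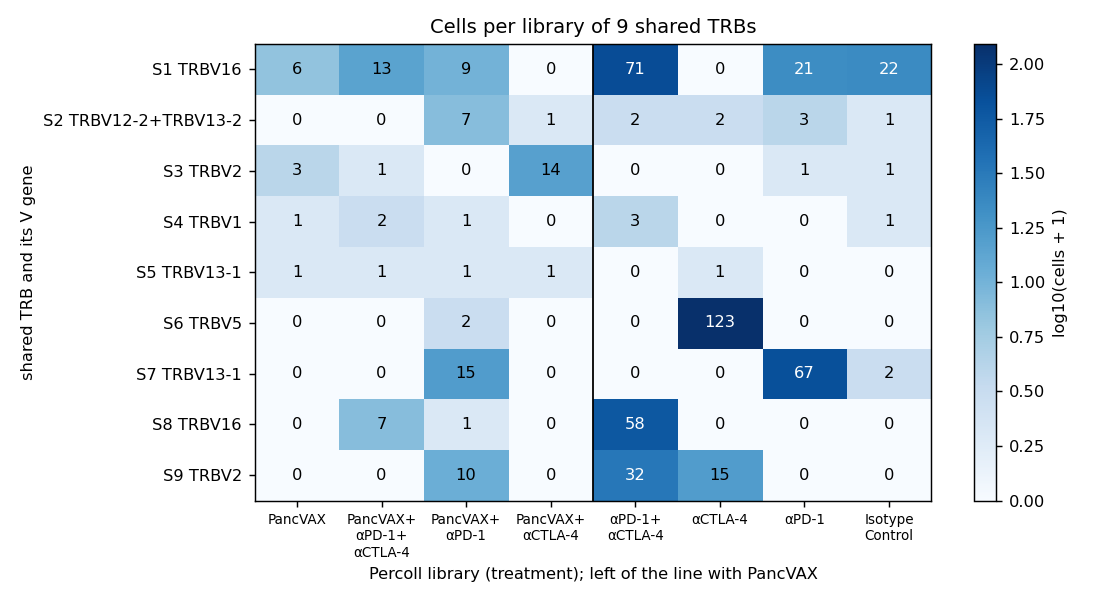
Heat map of the number of cells with each of the 9 shared TRBs S1 to S9 (rows) in each of the 8 Percoll libraries (columns), with the count in each cell of the map. S1 reached 71 cells in double antibody and was in 6 libraries, and S6 had 123 of its 125 cells in Anti-CTLA-4.

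S1 was thus spread over pools with and without the vaccine, with 6, 13, 9, and 0 cells in PancVAX, triple therapy, PancVAX + Anti-PD-1, and PancVAX + Anti-CTLA-4, and 71, 0, 21, and 22 cells in double antibody, Anti-CTLA-4, Anti-PD-1, and Isotype Control. S7 (TRBV13-1, TRBJ1-6; 84 cells) was almost confined to the 2 pools with anti-PD-1 and no anti-CTLA-4, with 67 cells in Anti-PD-1 and 15 in PancVAX + Anti-PD-1 against 2 in Isotype Control. The same nucleotides of both of its chains (α TRAV5-4/TRAJ30) were in 60 cells of Anti-PD-1 and 9 of PancVAX + Anti-PD-1. S9 (TRBV2, TRBJ2-7; 57 cells) had 32 cells in double antibody, 15 in Anti-CTLA-4, and 10 in PancVAX + Anti-PD-1, each with a nucleotide form of its own. S5 (TRBV13-1, TRBJ2-3) was the one TRB in 5 libraries with CD4+ cells, at 1 cell per library. Most shared TRBs were small: the median was 4.5 cells, 53 TRBs had 1 cell in each of their libraries, and the 10 TRBs with the most cells held 646 shared cells (41.5%).

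Sharing was mostly by amino acids and less by nucleotides. Of the 158 shared TRBs, 140 (88.6%) had at least 2 nucleotide forms, and the highest number was 8. Among private TRBs with at least 2 cells, 13 of 784 (1.66%) had 2 or more forms, a contrast that follows in part from the rule, since a private TRB was seen in 1 pool only. In 50 shared TRBs a nucleotide form itself occurred in 2 or more libraries, and in 108 it did not.

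The V and J segments of shared and private TRBs are given without a test, because V gene and CDR3 defined the members. TRBV13-1 made up 12.7% of shared and 9.28% of private TRBs, TRBV5 10.1% and 6.66%, TRBV16 9.49% and 7.08%, and TRBV20 6.33% and 3.32%. TRBV31 was in 0 of 158 shared TRBs, which allows a share of up to 1.90%, against 3.23% of private TRBs, and TRBV29 and TRBV1 were also less frequent (0.633% against 3.71%, and 1.90% against 4.57%). Among J segments, TRBJ2-1 was in 20.3% of shared and 12.8% of private TRBs and TRBJ2-4 in 12.0% and 7.91%, whereas TRBJ2-2 was in 1.90% and 5.60%. The CDR3 was 14 residues at the median in both (13.9 ± 1.16 SD, n = 158 TRBs, and 13.9 ± 1.42 SD, n = 3589), and it ranged over 11–17 and 5–19 residues, where a range also widens with the number of TRBs.

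Shared TRBs lay close to other TRBs. A TRB of the same V gene and CDR3 length that differed in 1 residue was present for 90 of 158 shared TRBs (57.0%) and for 564 of 3589 private TRBs (15.7%). Shared TRBs that were neighbors of each other formed 15 families of 36 TRBs. Families of 4 TRBV12-2 and 3 TRBV19 chains are shown because all 7 TRBs occurred only in pools with PancVAX. The same held for a TRBV10 family of 2 and a TRBV13-1 family of 2, and for 73 of the 158 shared TRBs in all. Every other family had a TRB in a pool without PancVAX. Pools with PancVAX also held more distinct TRBs (495–739 against 247–459 per pool). Capitals mark the codons whose amino acid differs among the TRBs of a family, and lower-case codons may differ in a silent base. Each line is the most frequent nucleotide form, or 1 of the tied forms for TRBV12-2 d.
TRBV12-2 a: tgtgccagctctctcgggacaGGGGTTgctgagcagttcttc
TRBV12-2 b: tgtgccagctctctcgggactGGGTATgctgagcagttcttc
TRBV12-2 c: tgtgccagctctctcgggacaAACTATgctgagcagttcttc
TRBV12-2 d: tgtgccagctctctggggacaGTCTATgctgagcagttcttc
TRBV19 a: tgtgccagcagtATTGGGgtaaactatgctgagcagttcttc
TRBV19 b: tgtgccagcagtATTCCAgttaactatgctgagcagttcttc
TRBV19 c: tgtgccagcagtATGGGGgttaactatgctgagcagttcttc
The TRBV12-2 chains a to d were in 11, 6, 17, and 2 cells of 3, 2, 3, and 2 libraries, and the TRBV19 chains a to c in 8, 4, and 2 cells of 2 libraries each. Of the TRBV12-2 family 28 of 30 cells within the quality limits were CD8+, of the TRBV19 family 13 of 13, and neither held a CD4+ cell. S1 belonged to another family of 4, all TRBV16, whose other members had 12, 21, and 8 cells and were found with and without PancVAX.

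Many shared β chains came with the same α chain in different pools. Of 138 shared TRBs with an α chain in cells of at least 2 libraries, 64 (46.4%) had the same α chain, by V gene, J gene, and CDR3 amino acids, in at least 2 of them. For pairings between 2 libraries, each distinct combination of TRB and α chain was counted once per library and not per cell. The α chain was the same in 114 of 433 pairings of the same TRB (26.3%) and in 1745 of 5322487 pairings of different TRBs (0.0328%). The 67 TRB and α chain pairs that recurred held 579 cells, 15 of them were in 3 or more libraries, and 62 had 2 or more joint nucleotide forms. In 10 pairs the same nucleotides of both chains were in 2 or more libraries, and in 57 they were not. Of the 67 pairs, 25 were only in pools with PancVAX, 11 only in pools without, and 31 in both. For all 158 shared TRBs these counts were 73, 15, and 70. Pools with PancVAX held more distinct TRBs, and the counts are not scaled for it.

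Some α segments were found in several recurrent pairs. TRAV6-7-DV9/TRAJ50 was in 8 pairs with 8 different TRBs (25 cells), TRAV7D-2/TRAJ7 in 6 pairs with 5 TRBs (147 cells), and TRAV16N/TRAJ16 in 4 pairs with 4 TRBs (37 cells). Among distinct pairs of TRB and α chain, these segments were in 2.35, 2.94, and 1.76% of those with a shared TRB and 0.810, 1.36, and 0.194% of those with a private one. TRAJ7 was in 36.7% of shared cells with an α chain and in 18.8% of private ones, or in 15.3% and 9.10% when each distinct pair was counted once. By library, TRAJ7 was in 20.9, 15.7, 5.35, and 38.2% of shared cells in PancVAX, triple therapy, PancVAX + Anti-PD-1, and PancVAX + Anti-CTLA-4, and in 49.8, 70.1, 31.7, and 54.1% in double antibody, Anti-CTLA-4, Anti-PD-1, and Isotype Control. It was thus lower in shared than in private cells in triple therapy and PancVAX + Anti-PD-1 (16.5% and 15.7% of private cells) and higher in the other 6 libraries. The α chains of innate-like T cells were rare in both: TRAV11/TRAJ18, the segments of invariant NKT cells, were in 1 of 1339 shared cells with an α chain and 20 of 5172 private ones, and TRAV1/TRAJ33, those of MAIT cells, in 0 of 1339, which allows a share of up to 0.224%, and 5 of 5172.

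The share of cells with a shared TRB was lower in pools with PancVAX. It was 14.7, 17.0, 16.9, and 12.9% in PancVAX, triple therapy, PancVAX + Anti-PD-1, and PancVAX + Anti-CTLA-4, and 27.8, 29.1, 18.9, and 19.1% in double antibody, Anti-CTLA-4, Anti-PD-1, and Isotype Control. The rule used the same 8 libraries, so the share of a pool depends on the TRBs of the others, and the test below concerns only the PancVAX label. Pools with PancVAX held 495–739 distinct TRBs and those without 247–459, and the part of this in the share was not tested. The groups did not overlap (15.4 ± 1.97% against 23.7 ± 5.47%, mean ± SD, n = 4 pools each), and the difference of −8.38 percentage points had *P* = 0.0286 in the exact two-sided permutation test, the smallest value that 4 against 4 pools allow. It missed the threshold when PancVAX (−8.26 points, exact permutation *P* = 0.0857), PancVAX + Anti-PD-1 (−7.04, *P* = 0.114), or PancVAX + Anti-CTLA-4 (−8.11, *P* = 0.0857) was left out. The difference rested on a few TRBs with many cells. S6, with its 2 large clones, made up 44.4% of shared cells in Anti-CTLA-4, and S7 made up 42.9% in Anti-PD-1. Without S1 the difference was −6.05 points (exact permutation *P* = 0.114), and without the 5 TRBs with the most cells (S1 and S6 to S9) it was 0.231 points (exact permutation *P* = 0.914). As a share of distinct TRBs it went the other way, at 10.3 ± 1.05% with PancVAX and 9.04 ± 2.14% without (exact permutation *P* = 0.343).

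**Figure D2:**
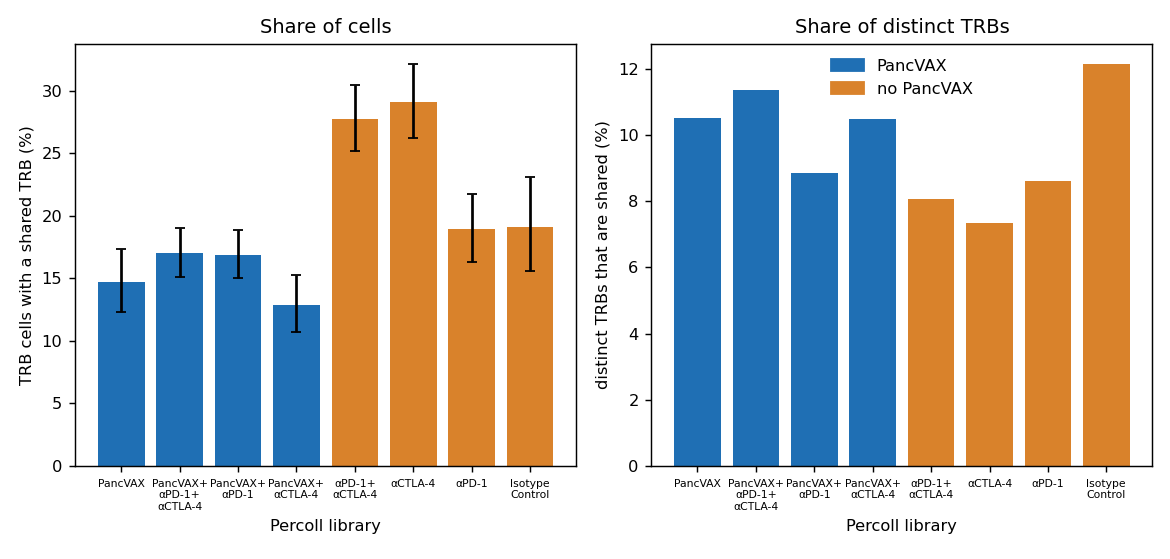
Percentage of cells with a TRB (bars, with exact binomial 95% intervals of counting error) and of distinct TRBs that were shared, in each of the 8 Percoll libraries, blue with PancVAX and orange without. The share of cells was 12.9–17.0% with PancVAX and 18.9–29.1% without.

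Pools of the same vaccine status shared more TRBs with each other than mixed pools did. Of the 158 shared TRBs, 73 (425 cells) were only in pools with PancVAX, 15 (120 cells) only in pools without, and 70 (1010 cells) in both. The numbers of distinct TRBs differ between pools, so the TRBs shared by 2 libraries were divided by the product of their numbers of distinct TRBs. Per 1000000 such pairings, 59.4 were shared on average over the 6 pairs of libraries with PancVAX, 69.2 over the 6 pairs without, and 38.1 over the 16 mixed pairs. Presence in 2 libraries is also what the rule used, so the test concerns only how the PancVAX label falls on the pairs. Pairs of the same vaccine status exceeded mixed pairs by 26.2 per 1000000 pairings (exact two-sided permutation of the PancVAX label, *P* = 0.0286, the smallest value allowed). The value was 26.6 without the 5 largest TRBs, so that it did not rest on them, but it was 3.02 (exact permutation *P* = 0.343) when a TRB had to share its nucleotides. The highest pair was Anti-PD-1 with Isotype Control (11 TRBs, 112.7 per 1000000) and the lowest PancVAX + Anti-PD-1 with Anti-PD-1 (6 TRBs, 21.7 per 1000000). The kinds of pair overlapped, since the lowest pair of equal status was at 38.8 per 1000000 and 6 of 16 mixed pairs lay above it, up to 73.6 for PancVAX with Isotype Control.

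**Figure D3:**
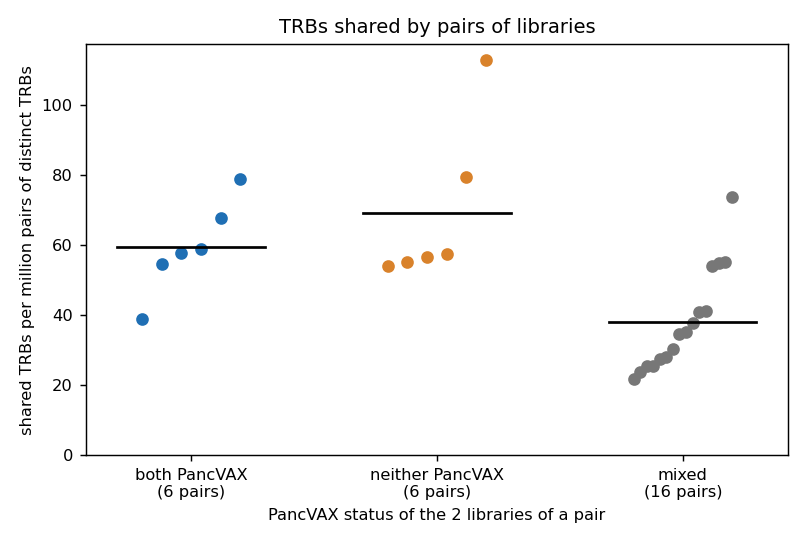
TRBs shared per 1000000 pairings of distinct TRBs for each of the 28 pairs of Percoll libraries, by whether both, neither, or 1 of the pair had PancVAX. Points are pairs and lines are means, at 59.4, 69.2, and 38.1 per 1000000, and the mixed pairs reached from 21.7 to 73.6.

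Shared cells were more often CD8+. Cells with a *Cd8a* or *Cd8b1* UMI and no *Cd4* UMI made up 86.5 ± 7.17% of shared and 72.1 ± 3.73% of private cells (mean ± SD, n = 8 pools), higher in 8 of 8 (exact sign-flip permutation, Benjamini-Hochberg adjusted *P* = 0.0104 over 4 shares). Cells with neither made up 6.17 ± 3.38% and 16.0 ± 3.32%. Shared cells had more UMIs in 7 of 8 libraries (medians of 3936–5549 against 3455–4827 per library), so UMIs were also thinned to 2000 per cell, an alternative added after the data were seen, which left out 68 shared and 440 private cells. The CD8+ share was then 85.4 ± 8.19% and 71.1 ± 4.85%, higher in 8 of 8 (adjusted exact *P* = 0.0104). Among cells with a call of 1 lineage, CD8+ cells made up 93.1 ± 4.28% and 87.4 ± 1.72% (exact *P* = 0.00781). Barcodes with no receptor contig and no *Cd3* UMI gave the background: *Cd8* without *Cd4* was read in 0.939% of 958 barcodes with at least 3 of 4 B cell genes (median 2208 UMIs) and 1.59% of 5863 with at least 5 of 7 macrophage genes (median 4454 UMIs), and *Cd4* without *Cd8* in 0.313% and 8.72%. Among shared and private cells, those with *Cd4* and no *Cd8* UMI made up 6.28 ± 3.78% and 10.4 ± 1.35%. Both shares are above the 0.313% of B cell barcodes, and they are below and above the 8.72% of macrophage barcodes. Cells with UMIs of both *Cd4* and *Cd8* made up 1.06 ± 0.882% and 1.41 ± 0.473%. The share with *Cd4* and no *Cd8* was lower in shared cells in 8 of 8 (adjusted *P* = 0.0104, exact). This difference shrank from −4.15 to −2.22 points without the 5 largest TRBs (adjusted exact *P* = 0.323) and to −2.94 points without the double antibody pool (adjusted exact *P* = 0.0625). Cells with a *Foxp3* UMI, the regulatory T cell factor, were 3.57 ± 2.11% and 4.32 ± 0.883% (adjusted exact *P* = 0.359). A TRB present in 2 or more cells of its own library was carried by 82.6 ± 11.8% of shared and 52.2 ± 5.01% of private cells. This is given as a description, because the chance of finding a TRB in a second pool rises with its frequency. Counted by TRB, 114 shared TRBs had CD8+ and no CD4+ cells, 33 had CD4+ and no CD8+ cells, 2 had both, and 9 had neither. Such counts are not given for private TRBs, so the shares above compare cells, among which large clones weigh more. In 112 of the 114 TRBs with a call in 2 or more libraries, all called cells were of 1 lineage.

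RNA of shared cells was compared with that of private cells of the same library. UMIs were summed over each set of cells, and a gene was called when the quasi-likelihood test of edgeR with library as a block gave an adjusted *P* (Benjamini-Hochberg) below 0.05 and the log2 difference was above 0.5 in size. Of 7809 genes tested, 198 (2.54%) were called, 67 higher (0.858%) and 131 lower (1.68%) in shared cells. Genes of naive and memory cells were lower, the granzyme genes *Gzme*, *Gzmd*, and *Gzmf* were higher, and the inhibitory receptor gene *Lag3* and the exhaustion factor *Tox* were higher, whereas *Gzmb* and *Ccl5* were not called.

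Of 8 naive or memory genes, 6 were lower and 0 higher, with a median log2 difference of −1.12 against 0.00 for all genes tested. *Tcf7*, a factor of naive and stem-like T cells, was at 41.5, 38.2, 32.2, 33.7, 15.6, 5.17, 33.9, and 6.04 CPM in shared cells of PancVAX, triple therapy, PancVAX + Anti-PD-1, PancVAX + Anti-CTLA-4, double antibody, Anti-CTLA-4, Anti-PD-1, and Isotype Control. In private cells it was at 60.7, 59.4, 59.3, 102.4, 48.6, 71.7, 88.9, and 79.8 CPM in the same order. It was lower in shared cells of all 8 pools, lowest in Anti-CTLA-4 and Isotype Control, and the ranges did not overlap (log2 difference −1.43 ± 0.21 SE, edgeR adjusted *P* = 0.000357). In shared cells of Isotype Control it lay below 3 UMIs, which correspond to 9.07 CPM there, so the order of the lowest pools rests on few counts. *Klf2*, which drives recirculation genes (−1.12 ± 0.13, edgeR adjusted *P* = 2.74e-05), and its target *S1pr1*, the receptor for tissue egress (−1.13 ± 0.26, edgeR adjusted *P* = 0.0109), were lower in 8 of 8 pools, as was *Lef1*, a partner factor of *Tcf7* (4.11–44.0 against 32.3–84.1 CPM; −1.42 ± 0.26). *Satb1* was lower in 7 of 8 (−0.60 ± 0.13), and *Ccr7* and *Il7r* were not called. The largest falls outside the lists were *Igfbp4* (−4.71 ± 0.36) and *Nsg2* (−3.15 ± 0.32), each lower in 8 of 8, followed by *Ecm1*, *Dapl1*, *Pde2a*, *Tmem64*, and *Id3* at −1.20 to −1.47. With no upper limits on UMIs and genes and no hemoglobin limit, *Ecm1* (−0.14, edgeR adjusted *P* = 0.79), *Id3* (−0.0056, 1.00), *Dapl1* (−0.99, 0.21), and *Pde2a* (−1.42, 0.062) lost the call.

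Of 15 effector genes, 1 was higher (*Cx3cr1*, 0.60 ± 0.15) and 1 lower (*Ly6c2*, −0.96 ± 0.16), and the list had a median of 0.08. *Gzme*, a granzyme of strongly stimulated T cells, was at 207, 37.0, 78.2, 121, 61.7, 144, 228, and 90.7 CPM in shared cells in the order of pools above. In private cells it was at 19.5, 15.1, 10.0, 19.1, 50.0, 54.5, 42.2, and 71.3 CPM. Shared cells were higher in 8 of 8 pools, by 1.82 ± 0.26 (edgeR adjusted *P* = 0.000232), and the ranges overlapped between pools. Within CD8+ cells alone, triple therapy went the other way for *Gzme* (log2 ratio of shared to private CPM plus 1 of −4.30). No *Gzme* UMI was read in shared CD8+ cells of that pool, so the size of this ratio depends on the added 1. The higher *Gzme* level of all shared cells in triple therapy thus came from cells not called CD8+. *Gzmd* was also higher in 8 of 8 (1.51 ± 0.23, edgeR adjusted *P* = 0.000478), and *Gzmf* in 7 of 8 (1.04 ± 0.21), the exception being triple therapy with 15.0 CPM in shared and 60.8 CPM in private cells. An alternative with wider cell limits removed the upper limits on UMIs and genes and the limit on hemoglobin together (1505 shared and 6173 private cells), so that their effects cannot be told apart. There 13 of 36 named genes (those chosen by a rule on size and list membership) lost the call: *Gzme* stayed called (1.03, edgeR adjusted *P* = 0.035), but *Gzmd* (0.98, 0.17) and *Gzmf* (0.68, 0.30) did not, and DESeq2 did not call *Gzmf* (0.93, adjusted *P* = 0.29). *Gzmb*, the main granzyme of cytotoxic T cells, differed by 0.07 ± 0.10 (edgeR adjusted *P* = 0.805) and was higher in 4 of 8. *Ccl5*, a chemokine of effector cells, differed by −0.25 ± 0.09 (edgeR adjusted *P* = 0.133). The transcription factor *Irf8* was at 146–461 CPM against 84.5–237 CPM and higher in 8 of 8 (0.92 ± 0.11, edgeR adjusted *P* = 3.40e-05). The granzyme inhibitor *Serpinb9b* (1.30 ± 0.30, higher in 7 of 8) and the receptor gene *Klri2* (0.95 ± 0.15) were higher, as were *Gm156* (1.06 ± 0.18) and *Tmem273* (0.90 ± 0.14). The α chain segment genes *Trav6-7-dv9* (1.56 ± 0.40, higher in 5 of 8) and *Trav12-2* (1.38 ± 0.38, higher in 4 of 8) were also called, but DESeq2 called neither (*Trav6-7-dv9* 1.40, adjusted *P* = 0.31, and *Trav12-2* 0.37, 0.97), nor did edgeR with the wider cell limits (1.28, 0.29, and 1.14, 0.33).

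Of 12 inhibitory or exhaustion genes, 2 were higher and 0 lower, and all 12 log2 differences were above 0 (median 0.47). *Lag3* was at 359, 331, 329, 325, 410, 508, 528, and 381 CPM in shared and 185, 255, 164, 125, 285, 304, 316, and 435 CPM in private cells. It was higher in 7 of 8 pools, all but Isotype Control (0.69 ± 0.10, edgeR adjusted *P* = 0.000389). *Tox* was higher in 8 of 8 (135–282 against 56.1–187 CPM; 0.69 ± 0.10, edgeR adjusted *P* = 0.000324). *Pdcd1*, which encodes PD-1, was higher in 8 of 8 (303–562 against 200–380 CPM, edgeR adjusted *P* = 1.10e-05) but its difference of 0.50 ± 0.05 did not exceed the size limit.

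The other lists held few calls. Of 5 helper genes tested, *Cd40lg* (−1.42 ± 0.28) and *Izumo1r* (−0.79 ± 0.20) were lower, *Cd4* itself was not called (−0.62 ± 0.28, edgeR adjusted *P* = 0.259), and the median was −0.77. Of 11 interferon genes, *Rsad2* (−1.07 ± 0.30), *Ifi27l2a* (−0.74 ± 0.11), and *Bst2* (−0.62 ± 0.08) were lower (median −0.31). Of 8 homing genes, *Ccr2* (−0.79 ± 0.16), *Cd9* (−0.63 ± 0.14), and *Cxcr3* (−0.58 ± 0.15) were lower (median −0.35), and of 9 activation genes only *Nr4a1* was called (−0.52 ± 0.06; median −0.14). By edgeR 0 genes were called among 8 regulatory (median 0.02), 7 innate-like (0.30), and 8 proliferation genes (−0.06), of which 4, 4, and 0 had an unadjusted *P* below 0.05, as had 17.0% of all genes tested.

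**Figure D4:**
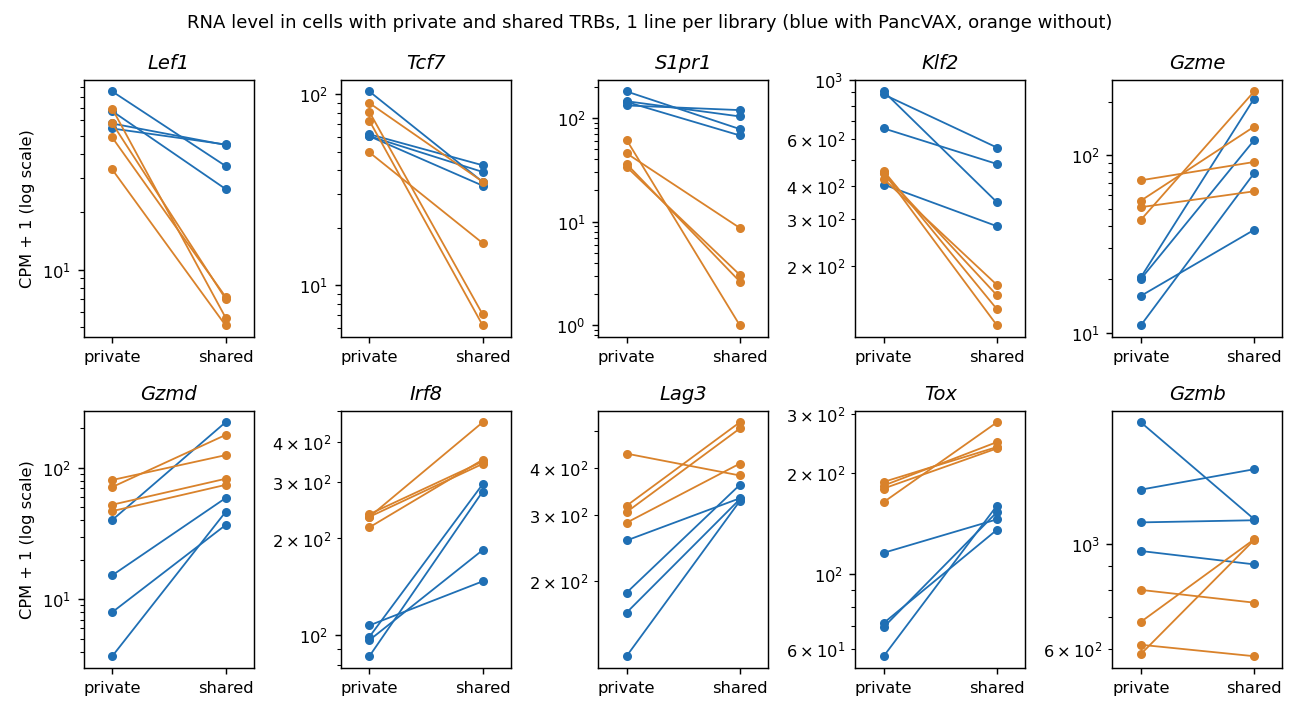
Level of 10 genes in private and shared cells of each of the 8 Percoll libraries, as CPM plus 1 on a log axis, with a line joining both values of a library, blue with PancVAX and orange without. *Lef1*, *Tcf7*, *S1pr1*, and *Klf2* fell and *Gzme*, *Gzmd*, *Irf8*, and *Tox* rose from private to shared in 8 of 8 libraries, *Lag3* rose in 7, and *Gzmb* in 4.

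The RNA contrast moved with clone size. Among expanded cells only (1000 shared, 2748 private), an alternative added after the data were seen, 13 genes were called, 12 of them also with all cells, and 25 of 26 named genes lost the call. *Gzme* was then at 1.40 (edgeR adjusted *P* = 0.051), *Tcf7* at −0.54 (0.46), *Klf2* at −0.43 (0.25), *Tox* at 0.33 (0.55), and *Lag3* at 0.29 (0.46), all on the log2 scale with the adjusted *P* in parentheses, whereas *Ccr2* stayed called (−0.79, adjusted *P* = 0.049). Between cells whose TRB was alone in its library (156 shared, 2088 private, 7 pools), 23 genes were called, with *Lag3* at 0.96 and *Tox* at 0.98 (edgeR adjusted *P* = 0.021 each), *Irf8* at 1.17 (0.016), and *Klf2* at −0.93 (0.021). Of 23 named genes that were called with all cells and could be tested there, 16 lost the call, among them *Tcf7* (−0.79, edgeR adjusted *P* = 0.35), *Lef1* (−1.28, 0.094), *S1pr1* (−0.75, 0.32), and *Ly6c2* (−0.71, 0.29). Without the 5 largest TRBs 113 genes were called, among them *Gzme*, *Gzmd*, *Tcf7*, *Klf2*, *S1pr1*, *Irf8*, *Tox*, and *Lag3*, while 7 named genes lost the call, among them *Cx3cr1*, *Cxcr3*, and *Rsad2*.

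Within CD8+ cells the same groups of genes were compared, since shared cells held more of them. Of 7344 genes, 99 (1.35%) were called, 37 higher (0.504%) and 62 lower (0.844%). Of 8 naive or memory genes, 7 were lower (median −1.05), including *Tcf7* (−1.36 ± 0.20), *Lef1* (−1.32 ± 0.27), and *Ccr7* (−1.09 ± 0.29). Of 12 genes of the inhibitory or exhaustion list, 3 were higher (median 0.36): *Tox* (0.58 ± 0.12), *Lag3* (0.54 ± 0.10), and *Tnfrsf9*, the gene of the activation marker 4-1BB (0.56 ± 0.08, higher in 8 of 8, edgeR adjusted *P* = 0.000486). *Gzme* (1.52 ± 0.30), *Gzmd* (1.15 ± 0.19), *Gzmc* (0.88 ± 0.18), and *Gzmf* (0.84 ± 0.19) were higher, and *Areg*, which encodes the growth factor amphiregulin, was higher by 1.37 ± 0.35 in 6 of 8 pools. For *Gzme*, triple therapy went the other way, with no UMI in its shared CD8+ cells. Its log2 ratio of shared to private CPM plus 1 was −4.30, and the next lowest pool was at 0.09. Of 14 effector genes, *Ly6c2* (−0.92 ± 0.12) and *Eomes* (−1.02 ± 0.27) were lower and 0 were higher (median −0.04). Among falls were also *Cxcl10*, an interferon-induced chemokine (−1.22 ± 0.29), *Ms4a4c* (−1.45 ± 0.24), and *Id3* (−1.20 ± 0.18). The calls in CD8+ cells changed with the cells and the tool. DESeq2 lost 9 of 30 named genes, among them *Gzme* (1.22, adjusted *P* = 0.61), *Gzmc* (0.60, 0.88), and *Areg* (1.20, 0.43). Among expanded cells 27 of 28 lost the call, with *Tcf7* at −0.50 (edgeR adjusted *P* = 0.65), *Tox* at 0.27 (0.71), *Lag3* at 0.23 (0.62), *Tnfrsf9* at 0.26 (0.46), and *Gzmd* at 0.75 (0.27). Among singletons 17 of 19 did (73 shared cells in 4 pools), and without the 5 largest TRBs 12 of 30. With the wider cell limits 20 of 31 lost the call. These included the granzymes, with *Gzme* at 0.74 (edgeR adjusted *P* = 0.33) and *Gzmd* at 0.64 (0.60), and all 3 genes of the inhibitory or exhaustion list, with *Tox* at 0.48 (0.060), *Tnfrsf9* at 0.35 (0.050), and *Lag3* at 0.49 (0.035, under the size limit). *Ccr7* (−1.02, 0.18), *Cxcl10* (−0.46, 0.73), *Eomes* (−0.76, 0.18), and *Areg* (0.60, 0.54) were lost as well, and *Id3* changed sign (0.16).

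Shared cells themselves differed by vaccine. With the 4 pools with PancVAX against the 4 without, and both antibodies as covariates, 292 of 6396 genes (4.57%) were called, 217 higher (3.39%) and 75 lower (1.17%) with PancVAX. The chemokine gene *Ccl5*, naive or memory genes such as *S1pr1* and *Klf2*, and interferon genes were higher, and *Tox*, *Lag3*, and *Gzmf* were lower. This comparison covers shared cells only and does not show that a difference is particular to them. A change of the difference between shared and private cells with the vaccine, given further below, was called for 27 of 8453 genes.

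*Ccl5* was at 8714, 13843, 12310, and 8493 CPM in shared cells of PancVAX, triple therapy, PancVAX + Anti-PD-1, and PancVAX + Anti-CTLA-4, and at 4585, 4204, 3181, and 2028 CPM in double antibody, Anti-CTLA-4, Anti-PD-1, and Isotype Control. The groups did not overlap, with the highest level in triple therapy and the lowest in Isotype Control, and the difference was 1.60 ± 0.14 (edgeR adjusted *P* = 1.56e-05). *S1pr1* was at 66.8, 118, 102, and 77.1 CPM with PancVAX and at 1.64, 2.07, 7.69, and 0 CPM without (4.91 ± 0.34, edgeR adjusted *P* = 1.62e-06). *Ly6c2*, an effector and memory marker, was at 855, 1311, 1015, and 1181 CPM with PancVAX and 228, 146, 332, and 154 CPM without (2.32 ± 0.17). The groups did not overlap in either gene. In 3 of the 4 pools without PancVAX *S1pr1* lay below 3 UMIs, which correspond to 2.47–9.07 CPM there, so that the size of its difference depends on very few counts.

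Of 7 naive or memory genes tested, 5 were higher with PancVAX and 0 lower (median 1.47 against 0.01 for all genes), namely *S1pr1*, *Lef1* (2.81 ± 0.32), *Ccr7* (1.69 ± 0.37), *Klf2* (1.47 ± 0.20), and *Il7r* (0.79 ± 0.15), while *Tcf7* was not called (1.15 ± 0.36, edgeR adjusted *P* = 0.0842). Of 9 interferon genes, 7 were higher and 0 lower (median 1.04). *Irf7*, the factor that amplifies interferon responses, was at 124, 123, 70.2, and 89.2 CPM with PancVAX and 24.7, 18.6, 32.3, and 21.2 CPM without (2.00 ± 0.25). *Isg15* was at 222–296 against 67.4–170 CPM (1.19 ± 0.21), and *Ifit1* rose by 2.95 ± 0.39. With the wider cell limits *Irf7* and *Ifit1* kept their calls, while *Isg15* (0.54, edgeR adjusted *P* = 0.11), *Ifi27l2a* (0.81, 0.10), *Bst2* (0.48, 0.41), *Ifitm1* (0.22, 0.48), and *Ifitm3* (0.16, 0.77) lost theirs. *Ifitm1*, *Ifitm3*, and *Ifi27l2a* also lost them without the 5 largest TRBs. Of 14 effector genes, 4 were higher and 0 lower (median 0.29): *Ccl5*, *Ly6c2*, *Gzmk* (0.95 ± 0.15), and *Klrg1* (2.31 ± 0.56). *Klrg1* had 1–7 UMIs in each pool without PancVAX, and it lost the call without S1 (1.98, edgeR adjusted *P* = 0.16), without the 5 largest TRBs (1.27, 0.41), and with the wider cell limits (1.60, 0.32), where *Gzmk* was not called either (0.82, 0.16). *Gzmb* was not called (0.42 ± 0.14, edgeR adjusted *P* = 0.11). Of 8 homing genes, 3 were higher (median 1.05), the chemokine receptors *Ccr2* (2.97 ± 0.34) and *Cxcr3* (1.56 ± 0.25) and the integrin *Itgb1* (1.31 ± 0.16). Of 9 activation genes, *Nfkbia* (1.43 ± 0.17), *Nr4a1* (0.99 ± 0.14), and *Dusp2* (0.60 ± 0.13) were higher.

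Of 12 genes of the inhibitory or exhaustion list, 0 were higher and 3 lower with PancVAX (median −0.35). *Tox* was at 152, 145, 135, and 159 CPM with PancVAX and 282, 238, 246, and 236 CPM without, which did not overlap (−0.84 ± 0.12, edgeR adjusted *P* = 0.000832). *Lag3* (−0.51 ± 0.13) and *Nr4a2* (−0.63 ± 0.16) were also lower, and *Pdcd1* was not called (−0.37 ± 0.13, edgeR adjusted *P* = 0.13). *Gzmf* was at 682, 15.0, 398, and 236 CPM with PancVAX and 789, 1002, 743, and 1148 CPM without (−1.95 ± 0.45, edgeR adjusted *P* = 0.0172). Other large falls were *Klra5* (−1.73 ± 0.46), *Car2* (−1.70 ± 0.30), *Lat2* (−1.63 ± 0.18), and *Gzmc* (−1.61 ± 0.31), and of 5 innate-like genes *Xcl1* (−0.93 ± 0.15) and *Klrd1* (−0.52 ± 0.11) were lower (median −0.52). DESeq2 lost 6 of 46 named genes, among them *Klra5* (−2.03, adjusted *P* = 0.26), *Gzmf* (−2.11, 0.23), and *Ccr7* (2.00, 0.11). *Klra5* was not called among expanded cells either (−1.42, edgeR adjusted *P* = 0.081). *Cd4* was higher (2.21 ± 0.33) and *Cd8a* lower (−0.60 ± 0.13), so the mix of lineages moved with the vaccine, and its part in these differences was not tested. Regulatory and helper lists held 1 gene higher each, *Il2ra* (0.82 ± 0.20; median of 8 genes 0.34) and *Cd4* (median of 3 genes 1.37), and 0 of 8 proliferation genes were called by edgeR or had an unadjusted *P* below 0.05 (median 0.02), which 18.2% of all genes tested had. *Il2ra* was not called by DESeq2 (0.79, adjusted *P* = 0.20) or without the 5 largest TRBs (0.66, edgeR adjusted *P* = 0.17). The other leading rises were *Trav16n* (3.40 ± 0.40), an α segment of recurrent pairs, *Klf3* (3.37 ± 0.44), *Itgb7* (2.36 ± 0.23), and *Nrarp* (2.65 ± 0.32). Among expanded shared cells only, *Ccl5* (1.52), *S1pr1* (5.48), and *Ly6c2* (2.38) kept their calls, and 7 of 44 named genes lost theirs. Among singletons (156 cells in 7 pools) *Ccl5* kept its call (2.14, edgeR adjusted *P* = 0.0043), while *S1pr1* (2.64, 0.11), *Ly6c2* (1.95, 0.17), and 28 of 29 named genes in all lost theirs. Without the 5 largest TRBs 11 of 42 did, among them *Lag3* (−0.51, 0.11), *Gzmf* (−1.90, 0.13), *Cd4* (1.45, 0.071), *Xcl1* (−0.83, 0.080), and *Klrd1* (−0.45, 0.071). With the wider cell limits, the calls fell from 292 to 46 and 27 of 46 named genes lost theirs, among them *Tox* (−0.66, edgeR adjusted *P* = 0.12), *Lag3* (−0.33, 0.32), *Gzmf* (−2.47, 0.20), *Ccr7* (1.16, 0.33), and *Nfkbia* (0.57, 0.15).

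**Figure D5:**
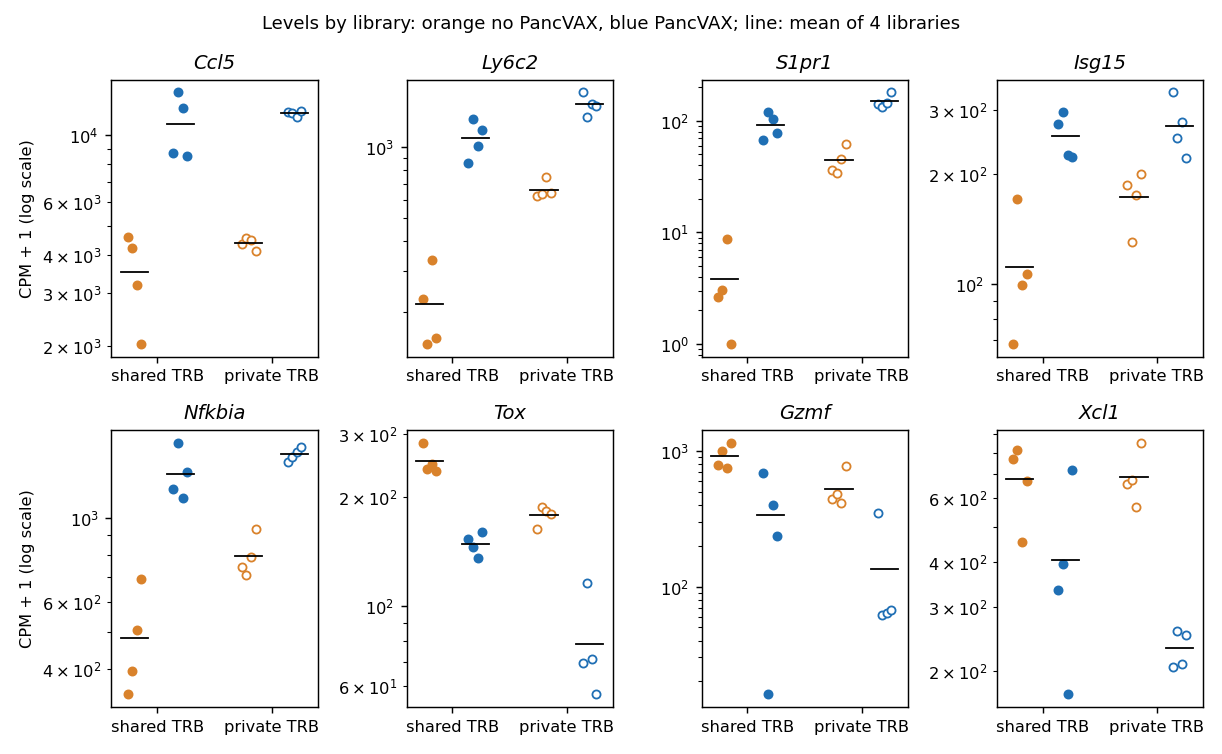
Level of 8 genes in shared and private cells of each Percoll library, as CPM plus 1 on a log axis, blue for the 4 pools with PancVAX and orange for the 4 without. *Ccl5*, *Ly6c2*, *S1pr1*, *Isg15*, and *Nfkbia* were higher and *Tox* and *Gzmf* lower in shared cells of every pool with PancVAX than in any without. Of these, at least *Ccl5* and *S1pr1* were split in the same way in private cells.

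The difference between shared and private cells was then compared by vaccine. *Ccl5* was at 11455–11997 CPM in private cells with PancVAX and 4108–4540 CPM without, and its difference between shared and private cells changed with the vaccine by 0.19 ± 0.17 (edgeR adjusted *P* = 0.975). This change, the interaction, was called for 27 of 8453 genes (0.319%), 24 in the higher (0.284%) and 3 in the lower direction (0.0355%). *S1pr1* was at 131–179 CPM in private cells with PancVAX and 32.8–60.6 CPM without, so that its level in shared cells without the vaccine stood apart (interaction 3.08 ± 0.45, edgeR adjusted *P* = 0.00209). *Klf3* (2.68 ± 0.47), *Lef1* (2.49 ± 0.36), *Ccr7* (2.12 ± 0.45), and *Klf2* (0.89 ± 0.16) were called in the same direction, and 4 of 8 naive or memory genes in all (median 1.06), with 6 of 8 at an unadjusted *P* below 0.05, against 6.35% of all genes tested. Of 11 interferon genes 0 were called higher and 1 lower (*Ifitm2*), but 10 had an unadjusted *P* below 0.05 and the median was 0.38, with *Ifit1* at 1.34 ± 0.45 (edgeR adjusted *P* = 0.469) and *Irf7* at 0.62 ± 0.23 (0.587). Of 12 inhibitory or exhaustion genes, among them *Tox* and *Lag3*, 0 were called by edgeR and 2 had an unadjusted *P* below 0.05 (median 0.19). Also called were *Ly6c2* (1.12 ± 0.18), *Nfkbia* (0.57 ± 0.12), *Cd4* (2.18 ± 0.39), *Gzmd* (1.69 ± 0.27), *Gzmg* (4.33 ± 0.89), *Ms4a4c* (1.90 ± 0.41), *Tnfsf11*, which encodes RANKL (1.66 ± 0.24), and, lower, *Wdr95* (−1.20 ± 0.26), *Ifitm2* (−0.63 ± 0.13), and *Lgals3*, which encodes galectin-3 (−0.61 ± 0.10). *Trav14n-3* (7.51 ± 1.03), an α segment, had 0 UMIs in shared cells of all 4 pools without PancVAX, so that its fitted size has no upper bound in the data. The *Gzmg* value rested on the PancVAX pool, with 143 CPM in shared cells there and 0, 3.45, and 0 CPM in the other 3. The calls changed with the set of cells: all 16 named genes lost theirs with the wider cell limits, and edgeR called 0 genes without the 5 largest TRBs, with 383 genes at an unadjusted *P* below 0.05, where *S1pr1* was at 2.35 (edgeR adjusted *P* = 0.34), and among expanded cells *S1pr1* was at −0.34 and *Ly6c2* at −0.91.

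*Ccl5* was also read for single receptors that were found in several pools. These values come from 1 library each and have no replicate, and their exact Poisson 95% intervals cover counting error only. S1 cells held *Ccl5* at 10454 CPM in triple therapy (9695–11257, 11 cells), 5183 CPM in double antibody (4919–5458, 54 cells), and 2767 CPM in Anti-PD-1 (2445–3120, 17 cells). In Isotype Control S1 cells held 2168 CPM (16 cells). S7 cells of nucleotide form 1 held 6103 CPM in PancVAX + Anti-PD-1 (5359–6920, 12 cells) and 2941 CPM in Anti-PD-1 (2740–3153, 49 cells). S8 cells held 15588 CPM in triple therapy (14188–17088, 5 cells) and 2971 CPM in double antibody (2751–3203, 36 cells). The pool with PancVAX was the higher one for S7, for S8, and for S1 in triple therapy. S1 cells of PancVAX + Anti-PD-1 (4 cells) and PancVAX (3 cells) went the other way. They were at 1671 and 157 CPM, below the S1 cells of every pool without PancVAX.

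*Gzma*, which encodes granzyme A and was singled out here after its values were seen, is given for clones of one pool as a description. Among clones of at least 10 CD8+ cells, the share of cells with a *Gzma* UMI was 0–73.3% (median 10.4%) in 21 shared and 0–78.9% (median 16.7%) in 40 private clones. In Isotype Control, S1 form 1 held 161 UMIs in 8 cells (3434 CPM, 2924–4008) and S1 form 3 held 16 UMIs in 8 cells (264 CPM, 151–429). In Anti-CTLA-4, S6 form 1 held 521 UMIs in 58 cells (1607 CPM, 1472–1751) and S6 form 2 held 3 UMIs in 22 cells (23.5 CPM, 4.85–68.7). S9 had 0 UMIs in 23 cells of double antibody, with an interval of 0–25.4 CPM, and S1 had 0 UMIs in 17 cells of Anti-PD-1, with an interval of 0–38.2 CPM, while S1 form 1 of double antibody held 379 UMIs in 54 cells (1362 CPM). The UMIs came from few cells, 7 of 58 in S6 form 1 and 11 of 54 in S1 of double antibody, so that these intervals understate the spread between cells.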

How the data were processed

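Single-cell 5′ RNA and T cell receptor libraries of 8 Percoll-enriched tumor pools were used. The deposited matrix holds UMI counts per gene and barcode that the authors made with Cell Ranger 4.0.0 against mm10, per the submitters' processing notes, which also name Seurat, and the deposited contig table gives V and J segments, CDR3, and UMI counts per contig. Libraries held 86932783–176233225 UMIs. Of 7937 barcodes with a TRB, 79 were not in the matrix. For 199 barcodes with 2 or more TRB contigs the one with most UMIs was taken (20 ties). Cells were kept for RNA when they had 1000–10000 UMIs in 200–3000 genes, less than 10% of them mitochondrial and none from hemoglobin. No doublet caller was run, and barcodes with 1 TRB contig were an alternative.

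UMI counts were summed per library over shared and over private cells, at 330942–1216062 and 1403181–4588865 UMIs per sum, for sums of at least 10 cells. TRB segment genes were left out of the tests. In edgeR 4.0.16 (limma 3.58.1, R 4.3.3) a quasi-likelihood model compared the sums, with library as a block for shared against private cells, since both come from the same pool, and with a term for each checkpoint antibody for PancVAX within shared cells. The interaction compared the difference between shared and private cells by PancVAX. Genes with an adjusted *P* (Benjamini-Hochberg over all genes tested) below 0.05 and a log2 difference above 0.5 in size were called, and standard errors were computed from the fold change and the F statistic. Shares were tested over libraries by exact permutation (70 arrangements, or 256 sign flips for pairs within a library). Poisson and binomial intervals (95%) cover counting error only.

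Genes named are, per comparison, the 10 largest rises and falls among those called with at least 20 CPM in the higher class, every called member of 10 gene lists, and 8 genes given throughout. One gene that the rule named is counted in its list but not reported here. TRBs named are the 5 in most libraries and the 5 with most cells. Members, lists, and names were chosen with earlier results of these data known. Alternatives were DESeq2 1.42.0, no count filter, other sets of cells or members, other covariates, and each library left out. The fits were tested on simulated data. Python 3.11.15, numpy 2.4.6, scipy 1.17.1, and pandas 2.3.3 were used. How many mice made up a pool was not given in the labels or methods.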

Additional observations from a re-analysis of the deposited data

Results flagged for a closer look

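In 167 groups of values, 13 values stood far from the rest of their group by Dixon's criterion, which chance alone meets in about 1 of 20 groups. Among log2 ratios of shared to private CPM plus 1 over the 8 pools, *Gzmf* was at −1.95 in triple therapy, where the next lowest pool was at 0.56. Within CD8+ cells *Gzme* was at −4.30 in triple therapy (next 0.09), *Cxcl10* at −5.18 in PancVAX (next −2.27), and *Eomes* at −4.80 in Isotype Control (next −1.81). Shared CD8+ cells held no *Gzme* UMI in triple therapy and no *Eomes* UMI in Isotype Control. The sizes of these ratios therefore depend on the added 1. The negative *Gzmf* and *Gzme* ratios came from the same pool.

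Among the 4 pools with PancVAX, shared cells stood apart for *Nrarp* in PancVAX + Anti-CTLA-4 (38.6 CPM, next 71.3), *Itgb7* in PancVAX + Anti-PD-1 (154 CPM, next 245), *B4galt5* in PancVAX + Anti-CTLA-4 (21.7 CPM, next 9.22), *Lag3* in PancVAX (359 CPM, next 331), and *Ifitm3* in PancVAX + Anti-PD-1 (526 CPM, next 392). Among the 4 pools without PancVAX they did so for *Gm45552* (9.07 CPM, next 3.08), *B4galt5* (42.3 CPM, next 30.0), and *Klrg1* (21.2 CPM, next 3.08) in Isotype Control, and for *Nr4a1* in Anti-PD-1 (195 CPM, next 136).

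The difference between shared and private cells changed with PancVAX, by the edgeR interaction test, for 16 named genes. The change was positive on the log2 scale for *Trav14n-3* (7.51), *Gzmg* (4.33), *S1pr1* (3.08), *Klf3* (2.68), *Lef1* (2.49), *Cd4* (2.18), *Ccr7* (2.12), *Ms4a4c* (1.90), *Gzmd* (1.69), *Tnfsf11* (1.66), *Ly6c2* (1.12), *Klf2* (0.89), and *Nfkbia* (0.57). It was negative for *Wdr95* (−1.20), *Ifitm2* (−0.63), and *Lgals3* (−0.61).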

How the results depend on the processing

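The share of CD8+ cells and the scaled pair difference kept direction and threshold with each library left out (12.1 to 15.5 points and 23.2 to 30.4 per 1000000 pairings), and the share of expanded cells differed by 27.4 to 33.4 points. The share of shared cells by PancVAX ranged from −9.99 to −6.23 points and missed the threshold without PancVAX (−8.26), PancVAX + Anti-PD-1 (−7.04), or PancVAX + Anti-CTLA-4 (−8.11). It was −6.05 without S1, 0.231 without the 5 largest TRBs, and 1.27 for distinct TRBs. The pair difference was 3.02 by nucleotide CDR3. The CD4+ share ranged from −5.15 to −2.94 and was −2.22 without the 5 largest TRBs. The *Foxp3* share ranged from −1.55 to −0.0309 and was 0.441 without them. The cause of these changes was not tested.

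Calls for shared against private cells, CD8+ cells alone, PancVAX, and the interaction were 198, 99, 292, and 27. They were 122, 58, 174, and 13 by DESeq2, 410, 238, 481, and 90 with no filter on low counts, and 93, 29, 46, and 0 with wider cell limits, with no upper limits on UMIs and genes and no hemoglobin limit (572 interaction genes at an unadjusted *P* below 0.05). Without the 5 largest TRBs, an alternative chosen after seeing the data like that of expanded cells, they were 113, 53, 147, and 0. Among singletons they were 23, 2, 5, and 4, with fewer cells and pools. By nucleotide CDR3 the first 3 were 56, 16, and 128. Among expanded cells shared against private, CD8+, and interaction calls were 13, 8, and 10, and without S1 the interaction had 6. With no replicate block the first 2 were 121 and 40. Leaving out 1 library gave 151 to 233, 67 to 131, 168 to 352, and 10 to 28 calls. PancVAX calls were 171 without triple therapy and 168 without double antibody, and interaction calls 13 without PancVAX + Anti-PD-1 and 10 without Anti-CTLA-4.

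The alternative without possible carry-over barcodes left the cells unchanged, so its values, counted here as well, could not differ from the main fit. Of 2743 single-gene values under alternatives, 2158 kept their side of the call, 29 of them uncalled values that changed sign, 552 lost the call, 17 gained it, and 16 changed sign with a call in either fit. For shared against private cells the last were *Trav12-2* by nucleotide CDR3 (−0.056), *Izumo1r* (0.35) and *Satb1* (0.11) in expanded cells, and *Ccr2* in singletons (0.047). Within CD8+ cells they were *Id3* with wider limits (0.16), *Ccr2* in singletons (0.17), and *Satb1* in expanded cells (0.10), and for PancVAX *Ifi27l2a* in singletons (−0.51). For the interaction they were *Gzmg* with wider limits (−1.57) and by nucleotide CDR3 (−5.11), *Gzmd* with wider limits (−0.48), *S1pr1* (−0.34), *Klf2* (−0.61), and *Ly6c2* (−0.91) in expanded cells, and *Wdr95* (1.28) and *Lgals3* (0.29) in singletons. With 4 pools on each side, 1 pool per treatment, and few UMIs for genes such as *S1pr1*, small differences were not detectable.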
